A study of Mus musculus with 4 samples.

Results

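The comparison described here sets B140H against B117H, a pair of mouse acute myeloid leukaemia lines that are both highly resistant to Ara-C, and asks which of the differences between them arose only after resistance. Genes were joined on their identifier, and those with a mean FPKM (fragments per kilobase of transcript, scaled to the depth of the library) of 1 or more over these 2 libraries were kept, with small RNA genes of the Mir, Snora, Snord, Scarna and Rnu families left out. That gave 9936 compared genes of 21889 listed. A further 43 small RNA genes reached the minimum and were left out, and 11260 genes did not reach it.

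All 4 lines of the study came from leukaemias of the BXH-2 mouse strain, in which inherited retroviruses insert into the genome and give rise to myeloid leukaemia. B117P and B140P are the Ara-C sensitive parental lines, with a labelled IC50 (the dose at which the drug reaches its midpoint effect) of 150 and 110 ng/ml. B117H was derived from B117P and has a labelled IC50 of 160 µg/ml, and B140H was derived from B140P and has one of 60 µg/ml. Per the labels, cells were passaged with no Ara-C in the medium, and exposure to rising Ara-C doses is given as the treatment of all 4 samples, the parental ones included. Each line has 1 library, and whether a resistant line is a single clone is not given in the sources used here. The lineages named B117 and B140 below each hold a parental line and its resistant derivative.

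Ara-C (cytarabine) is a deoxycytidine analogue that blocks DNA synthesis once kinases have converted it to its triphosphate, and deoxycytidine kinase, the product of Dck, carries out the first of these steps. Myeloid leukaemias are blocked at different points of blood cell formation. Their lines can therefore differ in genes of stem cells, granulocytes, monocytes, dendritic cells and early lymphoid cells.

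With 1 library per line there is no replicate error for any value below, no test was possible and no p-value is given. A gene is called different between the lines when the levels, as FPKM + 1, are at least 2-fold apart. Log2 differences are B140 minus B117, so positive values mean a higher level in B140H (or in B140P for the parental pair). A lineage difference is said to have arisen when the resistant lines were at least 2-fold apart, the parental lines were not, and the log2 difference had moved by 1 or more. These calls describe 4 libraries and not the effect of resistance in general. Changes tied to the drug cannot be told apart from changes that came with passage in culture.

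Leukocyte markers were present in both resistant lines. Ptprc, the pan-leukocyte phosphatase CD45, stood at 89.0 FPKM in B117H and 50.1 in B140H. Sfpi1, which encodes the myeloid and lymphoid transcription factor PU.1, stood at 81.3 and 104 FPKM. Other markers of myeloid leukaemia were above 1 FPKM in both resistant lines and lower in B140H. Cebpa was at 36.01 FPKM in B117H and 17.7 in B140H. Csf2rb was at 7.79 and 5.597 FPKM in that order, and Itgam at 8.86 and 1.53. A further 3 markers of myeloid leukaemia were well above 1 FPKM in B117H and under it in B140H. Kit, the stem cell factor receptor, was at 34.2 FPKM in B117H and listed at 0 in B140H. Cd34, a surface marker of progenitors, was at 206 FPKM in B117H and listed at 0 in B140H. Mpo, the granule enzyme myeloperoxidase, was at 473 FPKM in B117H and 0.913 in B140H. The T cell CD3 subunit genes Cd3e and Cd3g and the natural killer receptor Ncr1 were listed at 0 in all 4 libraries, as was the mast cell receptor gene Fcer1a. In a bulk culture, fewer cells of a type and less RNA per cell cannot be told apart.

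Between the resistant lines, 1875 of the 9936 compared genes (18.9%) were at least 2-fold apart, 955 of them (9.61%) higher in B140H and 920 (9.26%) higher in B117H. The parental lines were at least 2-fold apart in 1560 of the same genes (15.7%). The largest class was already present before resistance. In it, 1014 genes, 54.1% of those 2-fold apart, were also 2-fold apart in the same direction between the parents. Another 441 crossed the 2-fold line by a small shift. Differences that arose numbered 398 (4.01% of compared genes), of which 284 (2.86%) were higher in B140H and 114 (1.15%) in B117H. A further 208 genes (2.09%) were 2-fold apart between the parents and no longer so between the resistant lines, and 22 (0.221%) were 2-fold apart in opposite directions.

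The direction of the differences that arose depends on scaling. The median log2 difference over all compared genes was 0.15 between the resistant lines and 0.00034 between the parents. After each comparison was centred on its median, 353 differences arose, 188 of them higher in B140H and 165 in B117H, and 1794 genes were 2-fold apart, 741 higher in B140H and 1053 in B117H. After each library was scaled to an equal sum without small RNA genes, the median between the resistant lines shifted by -0.24 (log2), and 203 of 459 differences that arose were higher in B140H and 256 in B117H. Under that scaling 803 genes were 2-fold higher in B140H and 1477 in B117H. No excess of genes toward either line is therefore claimed. The expression pattern as a whole stayed close within a lineage. Over the compared genes, the Pearson correlation of log2 levels was 0.967 for B117P with B117H and 0.976 for B140P with B140H, against 0.850 between the resistant lines.

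**Figure D1:**
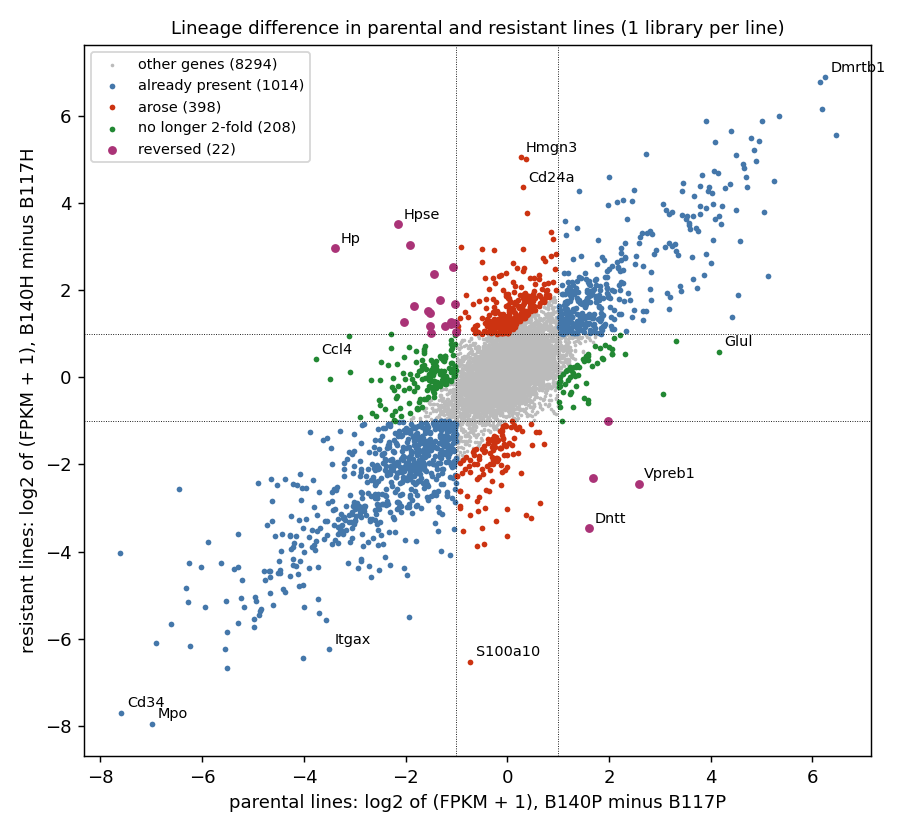
Each point is 1 of the 9936 compared genes, with the log2 difference in FPKM + 1 between the parental lines on the horizontal axis and between the resistant lines on the vertical axis, and dotted lines at 2-fold. Most coloured points lie along the diagonal, where the 1014 differences already present sit, while the 398 that arose form 2 vertical groups between the parental 2-fold lines and the 22 that reversed lie in the upper left and lower right corners.

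Among the genes that arose toward B140H, the 4 most displaced had moved in both lines, down in B117H and up in B140H. Hmgn3, a nucleosome-binding protein of the HMGN family, stood at 2.75 FPKM in B117P, 0.131 in B117H, 3.49 in B140P and 36.5 in B140H. The parents were alike, B117H was the lowest of the 4 libraries and B140H the highest, and the log2 difference went from 0.26 to 5.05. F13a1 encodes the A subunit of coagulation factor XIII, which monocytes and macrophages make. Its FPKM was 6.82 in B117P and 9.02 in B140P, against 0.533 in B117H and 48.8 in B140H, a log2 difference of 5.02. Cd24a, a lipid-anchored surface glycoprotein of immature lymphoid and myeloid cells, had 155 FPKM in B117P, 30.1 in B117H, 192 in B140P and 638 in B140H. That log2 difference widened from 0.31 to 4.36.

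Tmsb10, a small protein that binds actin monomers, followed the same course at a high level, with 277 FPKM in B117P, 71.6 in B117H, 231 in B140P and 549 in B140H. Ccne1, the cyclin E1 that drives entry into S phase, had 13.9, 5.33, 12.3 and 30.5 FPKM in B117P, B117H, B140P and B140H. Its level was thus similar in the parents, and the resistant lines were 2.31 apart on the log2 scale. Rtn4r, a receptor for the Nogo protein, and Smagp, a small transmembrane protein, also fell below their parent in B117H and above it in B140H, by at least 2-fold each time. In all, 13 of the 398 genes had moved at least 2-fold in both lines.

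For other genes, 1 line carried the change. Tyrobp, the signalling adaptor DAP12 of myeloid and natural killer cells, stood at 288 FPKM in B117P, 39.3 in B117H, 376 in B140P and 554 in B140H. B117H was the low library and the other 3 were within 2-fold of each other. Lmna, the nuclear lamin A/C gene, gave 18.6, 1.18, 12.98 and 15.7 FPKM in the same order, again with only B117H low. Itgb5, the integrin beta 5 chain, had 17.6 FPKM in B117P and 2.64 in B117H, against 9.61 in B140P and 12.5 in B140H. Slpi, a secreted inhibitor of neutrophil proteases, had 76.2 and 23.1 FPKM in the B117 lines and 82.2 and 148 in the B140 lines. Changes carried by B140H included Pilra, an inhibitory receptor of myeloid cells, at 17.2 FPKM in B140H and between 2.67 and 3.43 in the other 3 libraries. The listed span of Pilra overlaps that of Zcwpw1, and the FPKM of overlapping genes may share fragments. Gas7 and Myom1 were likewise highest in B140H, at 4.92 and 9.74 FPKM. Selenbp1 was at 5.67 FPKM in B140H and under 1 in the other 3, but 52% of its sequence words of 50 bases also occur in Selenbp2.

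Differences that arose toward B117H were led by S100a10, the S100 protein that pairs with annexin A2 at the membrane. S100a10 stood at 176 FPKM in B117P, 128 in B117H, 106 in B140P and 0.401 in B140H. It was abundant in 3 libraries and low in B140H, a log2 difference of -6.52 against -0.73 between the parents. Other genes low in B140H alone were Ptpla, a dehydratase of very long chain fatty acid synthesis, Hint2, a mitochondrial hydrolase, and S100a1, a calcium-binding protein. Ptpla had 23.1 FPKM in B117P, 24.1 in B117H, 16.1 in B140P and 1.29 in B140H. Hint2 had 26.3, 29.4, 15.5 and 2.37 FPKM in that order, and S100a1 had 46.6, 48.5, 42.5 and 7.95. In each of them B140H was the only library apart from the rest. Pde2a, a cyclic nucleotide phosphodiesterase, was at 0.270 FPKM in B140H and between 5.98 and 9.94 elsewhere, with 90% of its words shared with Gm45837. Omd was at 1.52 FPKM in B140H and between 9.998 and 28.0 elsewhere, and its span overlaps 4 other genes.

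In other genes of that group B117H was the library apart. Nrgn, the calmodulin-binding protein neurogranin, had 40.8 FPKM in B117H, with 2.77 in B117P, 3.87 in B140P and 3.69 in B140H. Nrg4, a ligand of the ErbB4 receptor, had 15.3 FPKM in B117H and between 0.727 and 1.49 in the others, and its span overlaps Fbxo22. Zfp13 was at 7.15 FPKM in B117H and listed at 0 in the other 3 libraries. Lpcat2, an enzyme of lysophospholipid acylation, was at 0.521 FPKM in B117P and 13.7 in B117H and listed at 0 in both B140 lines, with a span that overlaps Capns2. Mrgpra1 had 0.499 and 7.45 FPKM in the B117 lines and was listed at 0 in the B140 lines. No fold is given against a library listed at 0. Epha2, an ephrin receptor tyrosine kinase, was the only gene of the group that had moved 2-fold in both lines, from 3.46 to 10.3 FPKM in B117 and from 2.83 to 0.145 in B140.

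By line, 121 of the 398 differences had moved at least 2-fold from the parent in B117H alone, 94 in B140H alone and 13 in both, while 170 rested on smaller shifts in the 2 lines that added up to 2-fold. Toward B140H these numbers were 72, 63, 12 and 137, and toward B117H 49, 31, 1 and 33. Of the 398, 83 were at least 4-fold apart between the resistant lines, 29 were listed at 0 in a library and 44 carried clone names only. Spans overlapping another gene were as common among them (14.6%) as among all compared genes (14.2%).

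**Figure D2:**
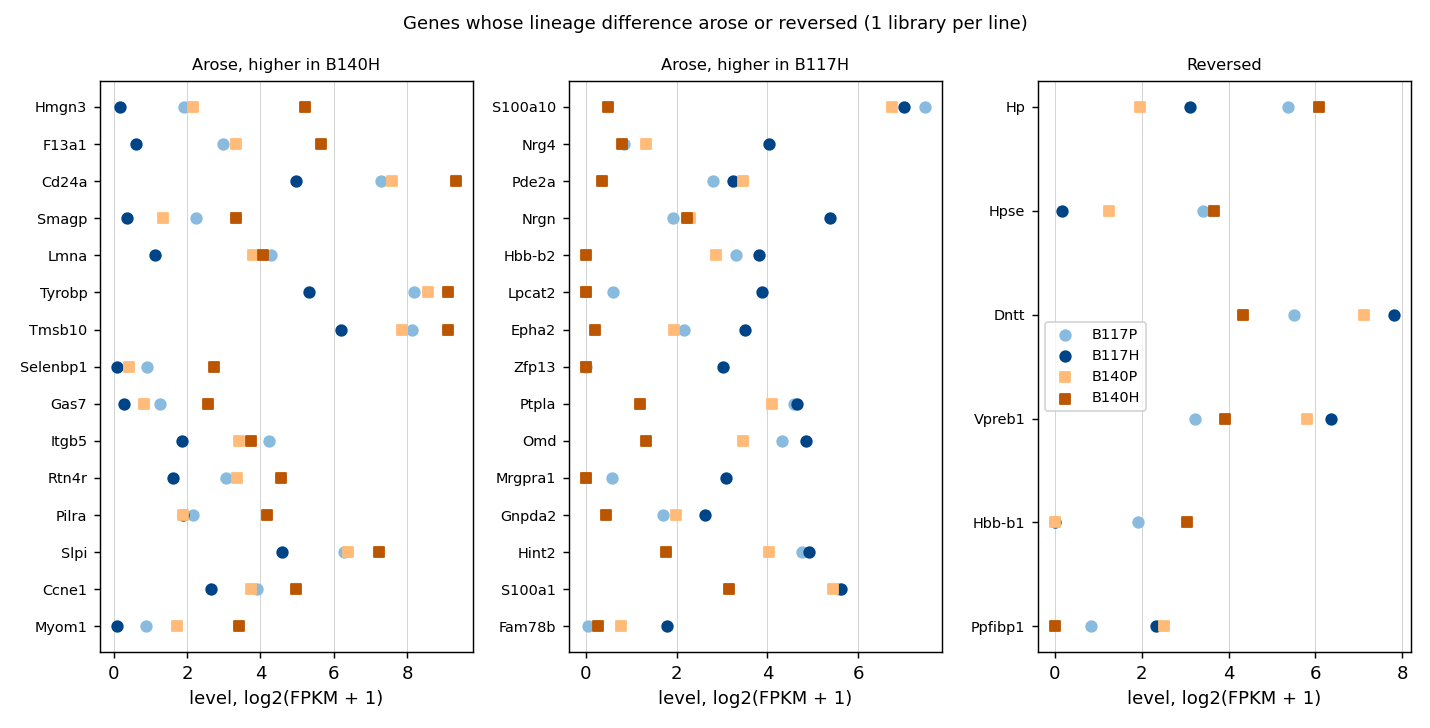
Levels are shown as log2 of (FPKM + 1) on the horizontal axis for the 15 most displaced genes that arose toward B140H, the 15 toward B117H and the 6 most displaced that reversed, with circles for B117 lines, squares for B140 lines, light colours for parents and dark colours for resistant lines. In the left panel the light symbols lie close together while B140H lies to the right of B117H, and for S100a10 only B140H is low.

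The reversed genes included a pair of early lymphoid genes. Dntt encodes terminal deoxynucleotidyl transferase, which adds bases at the joints of rearranging antigen receptor genes, and Vpreb1 encodes 1 of the proteins that stand in for a light chain in the pre-B cell receptor. Both went up in B117H and down in B140H. Their promoters are shown because the pair moved together. Each is the RefSeq sequence from 250 bases before to 50 bases after the start in GRCm38.p6, with capitals for matches to the E-box CANNTG or to the PU.1 core GAGGAA on either strand.
Dntt, chr19:41029025-41029324, plus strand: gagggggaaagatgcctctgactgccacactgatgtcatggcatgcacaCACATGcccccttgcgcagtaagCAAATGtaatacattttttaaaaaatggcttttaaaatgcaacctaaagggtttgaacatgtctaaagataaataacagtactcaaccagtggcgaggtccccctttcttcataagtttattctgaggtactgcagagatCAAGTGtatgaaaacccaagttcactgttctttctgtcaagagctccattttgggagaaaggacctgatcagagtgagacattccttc
Vpreb1, chr16:16869206-16869505, minus strand: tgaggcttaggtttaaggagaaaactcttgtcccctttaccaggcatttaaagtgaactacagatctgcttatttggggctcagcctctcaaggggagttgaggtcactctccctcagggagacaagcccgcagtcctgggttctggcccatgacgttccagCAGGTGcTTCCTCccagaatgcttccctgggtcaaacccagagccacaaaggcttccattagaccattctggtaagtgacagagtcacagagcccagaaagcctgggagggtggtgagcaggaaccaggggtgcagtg
The Dntt window held 3 E-boxes. The Vpreb1 window held 1 E-box and 1 PU.1 core, which do not overlap. Of 32851 promoter windows of this length, 72.3% held an E-box and 28.3% a PU.1 core, so such matches are common. Neither window held the AP-1 motif TGANTCA, found in 7.81% of windows.

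Dntt stood at 44.2 FPKM in B117P and 222 in B117H, and at 137 in B140P and 19.2 in B140H. The line with more of it therefore changed, from B140P among the parents (log2 difference 1.61) to B117H among the resistant lines (-3.47). Vpreb1 had 8.32 FPKM in B117P, 81.3 in B117H, 54.8 in B140P and 14.1 in B140H, and its log2 difference went from 2.58 to -2.44. Of its sequence words 31% also occur in Vpreb2. The B lineage genes around them did not reverse. Ebf1, the transcription factor that starts the B cell programme, was at 0.0230 FPKM in B117H and 23.7 in B140H, with 0 listed in B117P and 24.7 in B140P. Cd79b, a chain of the B cell receptor complex, was at 0.546 FPKM in B117H and 64.2 in B140H. Cd72, a B cell surface receptor, was at 2.31 and 149 FPKM. Of 17 compared B lymphoid genes, 12 were 2-fold higher in B140H and 4 in B117H, beside 9.61% and 9.26% of all genes. In that list 12 differences were already present and 2 arose (Cd24a and Blnk). The latter is a small count, 11.8% of the list beside 4.01% of all genes. Blnk, the B cell linker protein, chosen after its values were seen, was low throughout, at 2.92 FPKM in B117H and 0.181 in B140H.

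Of the 22 reversed genes, 18 were higher in B140H than in B117H. Hp, the haemoglobin-binding protein haptoglobin, had 40.0 FPKM in B117P, 7.64 in B117H, 2.91 in B140P and 66.6 in B140H. Hpse, the heparan sulphate-cleaving enzyme heparanase, had 9.60, 0.115, 1.38 and 11.7 FPKM in that order. In both, the higher line was B117P among the parents and B140H among the resistant lines. Cd28, a costimulatory receptor known from T cells, also changed sides, with 39.0 FPKM in B117P, 9.19 in B117H, 14.97 in B140P and 33.97 in B140H. Trem3, a receptor that signals through DAP12, had 12.0, 1.74, 2.17 and 5.58 FPKM. Cd28 and Trem3 were chosen after their values were seen. Ppfibp1 went the way of Dntt, from 0.765 to 3.98 FPKM in B117 and from 4.67 to 0.0083 in B140, with a span that overlaps 1700034J05Rik. The globin genes Hbb-b1 and Hbb-b2 moved in opposite directions to each other in B140H, at 7.17 and 0.000201 FPKM. They share a listed span and much sequence, so how fragments were divided between them is uncertain.

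Some parental differences closed. Among those that moved toward B140H, Ccl4, a chemokine of activated myeloid cells, was at 56.6 FPKM in B117P and at 3.46, 3.26 and 4.95 in B117H, B140P and B140H. Only B117P was high. Mmp8, the neutrophil collagenase, was low only in B140P, at 1.65 FPKM, against 21.6, 13.3 and 14.5 in B117P, B117H and B140H. Spp1, the secreted glycoprotein osteopontin, fell from 149 to 32.8 FPKM in B117 and went from 16.3 to 64.0 in B140. Gsn, the actin-severing protein gelsolin, ended at 22.1 FPKM in B117H and 44.8 in B140H from 45.1 and 8.46 in the parents. Toward B117H, Glul, the glutamine synthetase gene, was at 0.0328 FPKM in B117P and at 15.6, 17.5 and 23.8 in B117H, B140P and B140H, so B117P alone was low. Xrcc5, the Ku80 subunit of the complex that joins broken DNA ends, was at 13.2 FPKM in B140P and at 0.717, 3.53 and 2.50 in B117P, B117H and B140H. Of the 1560 parental differences these 208 were 13.3%, and 65.0% stayed 2-fold apart in the same direction.

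Apart from S100a10, the widest differences between the resistant lines had been there between the parents. On the B140H side, Slc11a1, a metal transporter of phagosomes, stood at 0.520 FPKM in B117P, 0.448 in B117H, 107 in B140P and 158 in B140H. Htra3, a secreted serine protease, had 0.104, 0.284, 78.9 and 91.4 FPKM, and Pou4f1, a transcription factor best known from sensory neurons, had 0.0592, 0.0399, 91.8 and 48.4. On the B117H side, App, the amyloid precursor protein gene, had 127 and 70.5 FPKM in the B117 lines against 0.0672 and 0.0371 in the B140 lines. Mpo went from 1450 to 473 FPKM in B117 and from 10.4 to 0.913 in B140, so its lineage difference was wide before and after. Of the 1014 inherited differences, 854 moved by under 1 on the log2 scale, 85 became wider by 1 or more and 75 narrower.

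A few inherited differences widened strongly. Itgax, the CD11c integrin chain of dendritic cells and macrophages, went in B117 from 10.6 to 75.3 FPKM and stayed under 0.03 in both B140 lines. Il18r1, a chain of the interleukin-18 receptor, went from 16.1 to 87.7 FPKM in B117 and was at 0.0195 in B140H. Myl4, a myosin light chain, had 5.20 FPKM in B117P, 7.78 in B117H, 91.6 in B140P and 518 in B140H. Granulocyte genes went both ways. Ms4a3 went from 218 FPKM in B117P to 15.3 in B117H, and Elane, the neutrophil elastase gene, from 81.1 to 14.8, while both were under 0.4 FPKM in the B140 lines, so that their differences narrowed. Cxcr2, a chemokine receptor of neutrophils, went from 28.8 to 34.4 FPKM in B117 and from 4.08 to 1.44 in B140, and its log2 difference widened from -2.55 to -3.86.

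Read by gene list, the share of compared genes whose difference arose was 4.01% over all genes and 29.2% for monocyte and macrophage genes. Those 7 of 24 genes were F13a1, Tyrobp, Irf8, Cd68, Sirpa, Irf5 and Klf4, and all 7 were higher in B140H. Irf8, a transcription factor of monocytes and dendritic cells, had 119 FPKM in B117P, 57.2 in B117H, 88.5 in B140P and 200 in B140H. Cd68, a lysosomal protein of macrophages, had 32.7, 22.98, 25.3 and 64.1 FPKM. Sirpa, the receptor for CD47, had 26.2, 11.6, 20.03 and 29.4 FPKM. The parents differed by less than 2-fold in each. Irf8, Cd68, Sirpa and Irf5 are named because the count is small, and were chosen after their values were seen. With the median centred, 6 of the list's genes arose. The same list also held 8 inherited differences, among them Lgals3, Ccr2 and Lyz2, which were 2-fold higher in B117H. Lyz2, the lysozyme of macrophages and granulocytes, was at 31.2 FPKM in B117H and 0.566 in B140H. The list as a whole thus had 9 genes higher in each line, beside 9.61% of all genes higher in B140H and 9.26% in B117H. Its median log2 difference was 0.31 against -0.40 between the parents.

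Of 16 neutrophil and granulocyte genes, 9 were higher in B117H and 1 in B140H, beside 9.26% and 9.61% of all genes. None arose, a count too small to set apart from the 4.01% of all genes. With the median centred 1 arose, and with scaling to an equal sum 2 did. Their median log2 difference was -1.07 between the resistant lines and -2.11 between the parents. Among mast cell, basophil and eosinophil genes, all 5 compared were higher in B117H, Kit and Gata2 among them, and 2 arose. These were Mcpt8, a basophil protease, with 25.5, 20.9, 15.5 and 5.65 FPKM in B117P, B117H, B140P and B140H, and Hpgds, a prostaglandin D synthase, with 1.07, 2.34, 0.350 and 0.0744. Their log2 differences had moved by -1.04 and -1.02, just past the limit of 1. With centring or scaling 3 of the list arose, and with the median of neighbouring genes subtracted 1 did. Mast cell markers Cpa3 and Fcer1a were at or under 0.110 FPKM in all 4 libraries. Of 8 T and NK genes, 5 were higher in B117H and 2 in B140H. In that list 6 differences were already present, 1 reversed and none arose, too few genes to set apart from 4.01%. With the median of neighbouring genes subtracted, 4 arose. Klrd1, a receptor of natural killer cells, was at 3.33 FPKM in B117P, 10.4 in B117H, 1.12 in B140P and 0.562 in B140H, beside the defining markers Cd3e, Cd3g and Ncr1 at 0.

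None of 20 stem and progenitor genes and none of 7 dendritic cell genes arose, counts too small to set apart from the 4.01% of all genes. The median log2 difference of the stem list was -0.71 in both comparisons, and that of the dendritic list was 0.15 between the parents and -0.57 between the resistant lines. Erg, a transcription factor of blood stem cells, was at 38.6 FPKM in B117H and listed at 0 in both B140 lines. Meis1, a partner of Hoxa proteins, was at 0.0303 FPKM in B117H and 18.8 in B140H. Flt3, a cytokine receptor of progenitors and dendritic cells, was at 48.0 FPKM in B117H and 347 in B140H. All 3 had differed by 2-fold or more in the same direction between the parents.

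Both compared sex-linked genes were higher in B140H, and both lie on the Y chromosome. Ddx3y, a helicase gene, had 7.47 FPKM in B117P, 0.0432 in B117H, 21.4 in B140P and 19.2 in B140H. Uty, a histone demethylase family gene, had 1.99 and 4.54 FPKM in B117P and B140P, 3.59 in B140H and was listed at 0 in B117H. B117H was thus the only library in which both were near or at 0, and the cause was not tested.

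Of 31 compared interferon-stimulated genes, 15 were higher in B117H and 1 in B140H, beside 9.26% and 9.61% of all genes. Of these differences 13 were already present and none arose, a count close to what 4.01% of so short a list gives, and 2 parental ones closed. The list had a median log2 difference of -0.75 against -1.31 between the parents. Gbp3, a guanylate-binding protein, was at 24.6 FPKM in B117H and 0.0157 in B140H. Sterol and fatty acid synthesis genes were 2-fold higher in B117H in 13 of 35 cases and in B140H in none. Of the 13, 5 were already present and 7 had crossed the 2-fold line by a small shift. Of that list 1 gene arose, Acss2, which makes acetyl-CoA from acetate, at 2.62, 17.4, 2.15 and 3.83 FPKM in B117P, B117H, B140P and B140H. Lss, lanosterol synthase, is one of the 5 and was at 14.6 FPKM in B117H and 0.0132 in B140H and its log2 difference was -3.94, against -4.25 between the parents.

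Among S100, annexin and protease inhibitor genes, 5 of 22 arose (22.7%, against 4.01% of all compared genes), in mixed directions. S100a10, S100a1 and Anxa11 were higher in B117H, and Cst3 and Anxa2 in B140H. Anxa2, the membrane-binding partner of S100a10, was at 183 FPKM in B117P, 89.9 in B117H, 147 in B140P and 182 in B140H, so it was high in B140H, where S100a10 was low. Anxa2 lies just past the 2-fold line, at 1.01, and falls short of it once the median is subtracted. It was chosen after its values were seen. Immediate early genes gave 3 that arose of 23 (13.04%), Fos, Fosb and Klf4, all higher in B140H. Fos, a subunit of AP-1, had 8.99, 3.77, 11.6 and 16.8 FPKM in B117P, B117H, B140P and B140H. Among NRF2 and glutathione genes, Hmox1, the haem-degrading enzyme, was at 17.9 FPKM in B140H and between 3.19 and 4.66 elsewhere, 1 of 3 that arose of 34 (8.82%), and it too was chosen after its values were seen. Matrix and stromal genes had 3 that arose of 11 (27.3%), and Lmna was one of them. The structural collagen genes Col1a1 and Col3a1 were under 0.06 FPKM in all 4 libraries. Pdgfrb, of the same list, was not low throughout. Its level was 1.55 FPKM in B117P, 7.54 in B117H and 0.00954 in B140P, and it was listed at 0 in B140H. That difference was already present between the parents.

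For broad housekeeping groups the counts of differences that arose are read against 4.01% of all compared genes. Of 55 oxidative phosphorylation genes 1 arose, Uqcrfs1, a subunit of complex III. Of 62 DNA repair genes none arose, and 4 were 2-fold higher in B140H, beside 9.61% of all genes. Among the 4 was Brca2, at 3.62 FPKM in B117H and 16.3 in B140H. With the median of neighbouring genes subtracted, no DNA repair gene was 2-fold higher in B140H. The log2 difference of Brca2 was then 0.39 in place of 1.91. Of 51 cell cycle genes 2 arose (3.92%), Ccne1 and Gmnn. Ribosomal protein genes gave none of 58 and antigen processing genes of MHC class I none of 23. Histone genes had a median of 0.32 between the resistant lines and -0.77 between the parents. In that list 3 of 28 differences arose (10.7%) and 6 parental ones were no longer 2-fold. With the median of neighbouring genes subtracted, no histone gene arose and the median was -0.19.

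**Figure D3:**
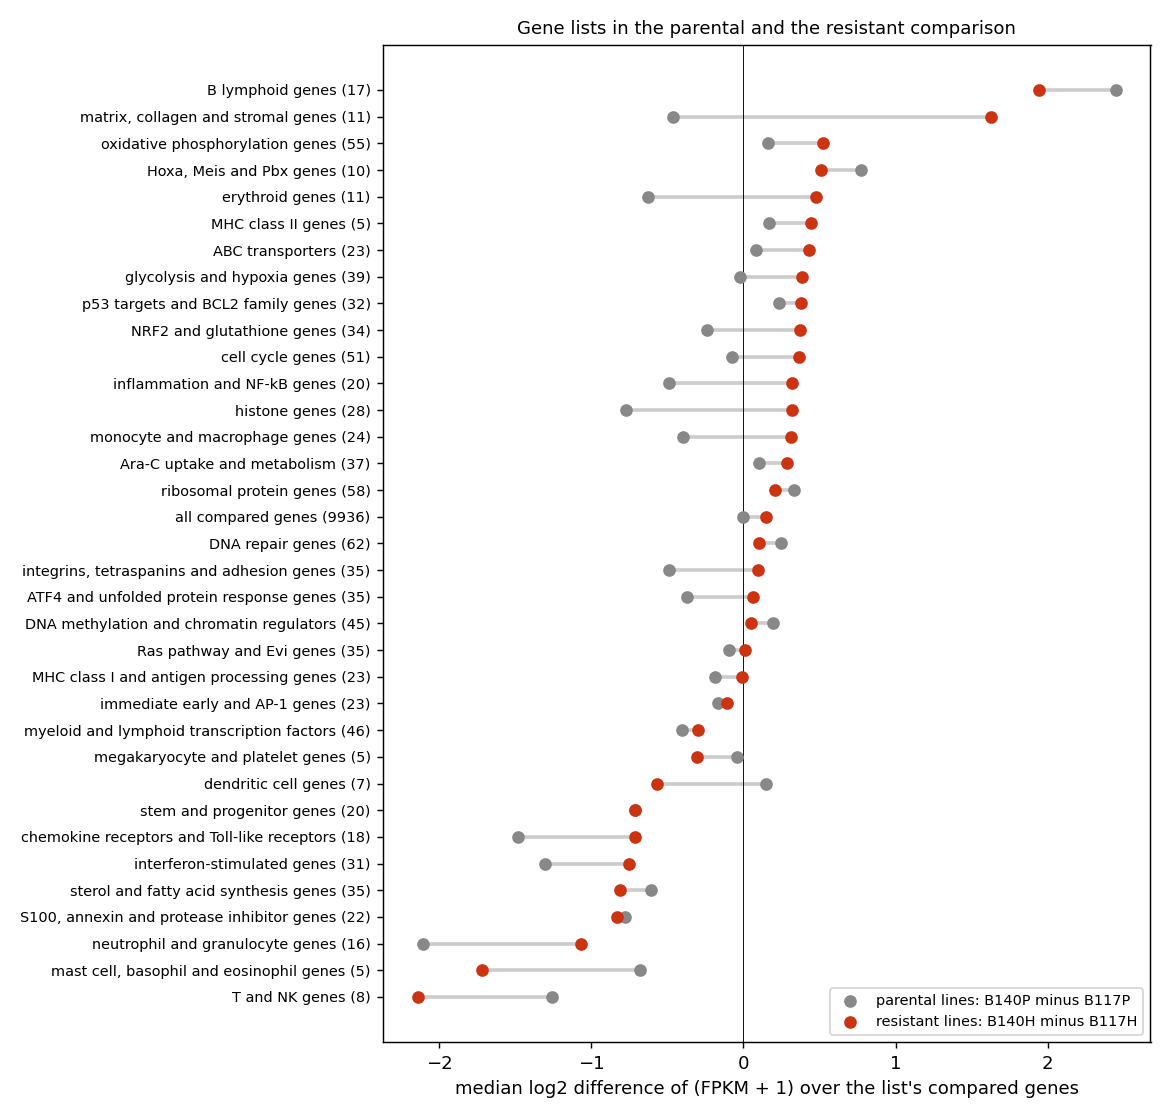
Each row is a gene list, with the number of compared genes in parentheses, and the points give its median log2 difference in FPKM + 1 between the parental lines (grey) and between the resistant lines (red). B lymphoid genes, at 1.94, and neutrophil genes, at -1.07 in the resistant lines, keep their side of 0, while others such as the matrix, histone, monocyte and erythroid lists lie on opposite sides in the parental and resistant comparisons.

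The genes that take up or metabolise Ara-C include Dck. Dck was low in both resistant lines, at 3.31 FPKM in B117H and 2.44 in B140H against 20.1 and 17.8 in the parents, so that its log2 difference was -0.32 between the resistant lines and -0.17 between the parents. Of 37 compared genes of this list, 2 were 2-fold higher in B140H and 6 in B117H, beside 9.61% and 9.26% of all genes. One difference arose (2.70%, near the 4.01% of all genes), that of Tk1, the thymidine kinase of cycling cells, with 58.0 FPKM in B117P, 37.5 in B117H, 96.2 in B140P and 129 in B140H. It was not among those that arose once the medians were centred. Nt5e, the surface nucleotidase CD73, was at 9.58 FPKM in B117H and 0.0114 in B140H, and had been at 26.4 and 0.0292 in the parents. Of 23 compared ABC transporters, a family that exports many drugs, 2 arose (8.70%, against 4.01% of all genes). With scaling to an equal sum 3 arose, and with the median of neighbouring genes subtracted 1 did. Abcb6, one of those that arose, was at 6.01 FPKM in B117H and 29.7 in B140H, and had been at 12.4 and 18.6 in the parents. Of its sequence words 67% also occur in Gm29253.

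The differences that arose were unevenly spread over the chromosomes. Chromosome 13 held 63 among its 377 compared genes (16.7%), 59 of them higher in B140H. Chromosome 5 held 74 among 644 (11.5%), 69 of them higher in B140H. Together these chromosomes hold 10.3% of the compared genes and 34.4% of the differences that arose, and on the other 18 chromosomes, Y left aside, the share was between 1.495% and 4.33%. After scaling to an equal sum the concentration was weaker, with 94 of 459 differences that arose on these chromosomes. Of the 208 parental differences that closed, 53 were on chromosomes 15 and 19.

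**Figure D4:**
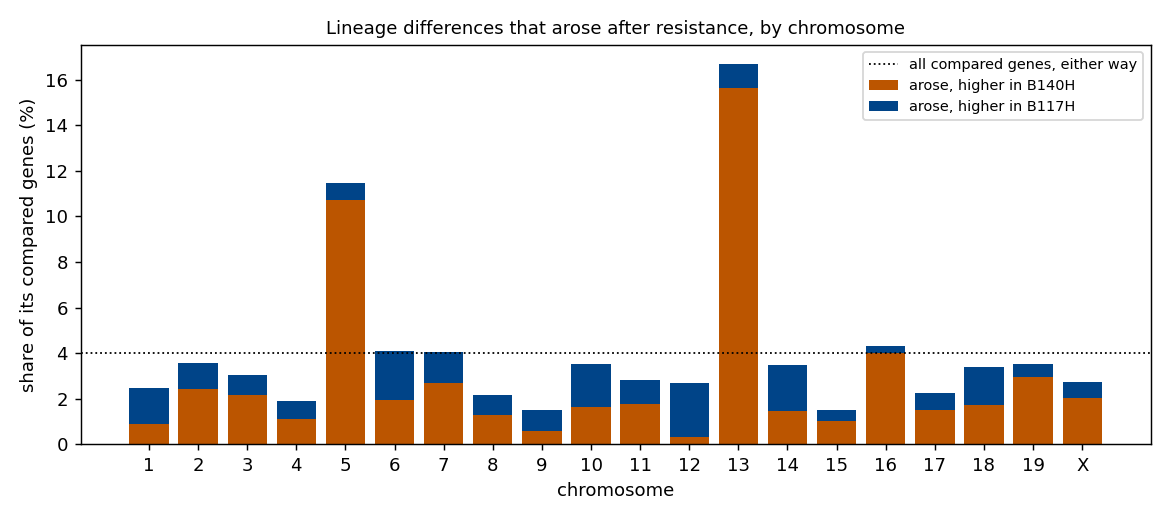
Bars give, for each chromosome, the share of its compared genes whose lineage difference arose after resistance, with the part higher in B140H in orange, the part higher in B117H in blue and a dotted line at the 4.01% of all compared genes. Chromosomes 13 (16.7%) and 5 (11.5%) stand above the others, and almost all of their bars is orange.

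Some of these genes, 101 of the 398 that arose, lay in runs of neighbours that moved together, found as windows of 25 neighbouring compared genes whose median change in the difference lay 0.7 or more (log2) from that of all genes. Positions are in mm9 as deposited. On chromosome 13, the 169 compared genes of chr13:14144714-56740700 had a median log2 difference of -0.06 between the parents and 0.99 between the resistant lines. They were lower in B117H than in B117P by a median of -0.85 and moved little in B140H (0.19), and 55 of the differences that arose were among them. On chromosome 5, the 103 genes of chr5:134696130-142954669 reached 0.94 from -0.09, here through B140H, where the median was 0.80 above B140P. That stretch held 29 differences that arose, Pilra among them. A pair of shorter stretches of chromosome 5, chr5:34981185-37516537 with 16 genes and chr5:92686686-101001224 with 21, reached 1.06 and 1.01 by lower levels in B117H.

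Other stretches closed a parental difference. On chromosome 15, 36 genes in chr15:7823055-34373031 went from -1.33 to 0.16, with B117H at -1.42 relative to B117P. On chromosome 19, 32 genes in chr19:42829686-46361000 went from -1.25 to 0.34, with B117H at -1.21. These 2 stretches held 21 and 16 of the differences that closed. The remaining 5 blocks moved the other way, toward B117H, by less. On chromosome 12, 150 genes in chr12:4850109-77420807 went from 0.26 to -0.30, with B117H 0.54 above B117P. On chromosome 3, 92 genes in chr3:95428902-108248087 went from 0.71 to 0.09, with B140H at -0.51 relative to B140P. A further 3 blocks on chromosome 9, with 11, 14 and 23 genes, had median changes between -0.82 and -0.54. These 5 blocks held 3, 0, 0, 1 and 1 of the differences that arose. In all, 11 such blocks, chosen after the values were seen, covered 6.71% of compared genes, 25.4% of the differences that arose and 30.8% of those that closed. The blocks were picked by the same change in the difference that defines both classes. Higher shares inside them are therefore partly built in. With the median of neighbouring genes subtracted from both comparisons, 252 differences arose, 103 of them higher in B140H, and 26 on chromosomes 5 and 13 in place of 137. Of the 398, 176 were still among them. F13a1 lies in the chromosome 13 block and was still 3.95 apart after its neighbours' median was subtracted, and Hmgn3 was 5.02 apart. DNA copy number was not measured here, and its part in these runs was not tested.

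**Figure D5:**
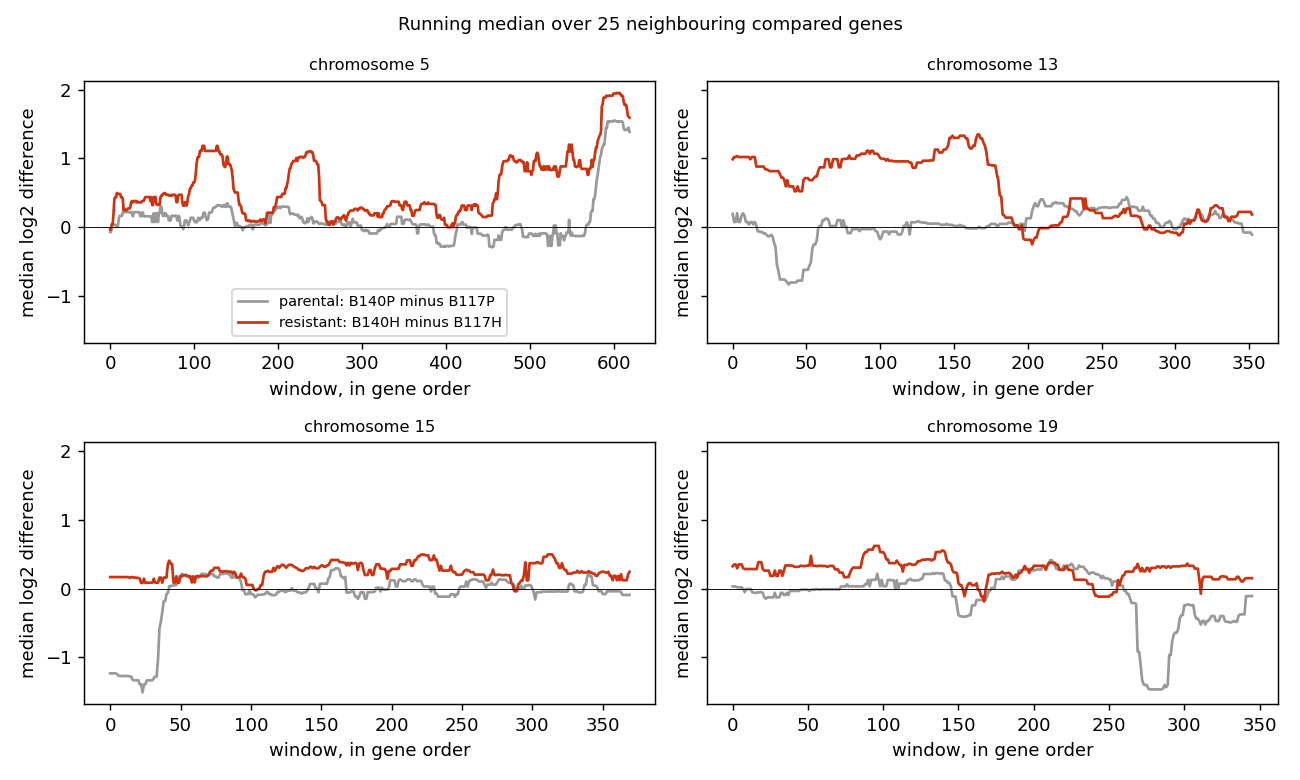
Lines give the median log2 difference in FPKM + 1 over windows of 25 neighbouring compared genes, in gene order along chromosomes 5, 13, 15 and 19, for the parental lines (grey) and the resistant lines (red). The red line sits near 1 over the first part of chromosome 13 and 3 stretches of chromosome 5 where the grey line is near 0, and the grey dips at the start of chromosome 15 and late on chromosome 19 have no red counterpart.

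The 2-fold line itself is arbitrary for genes beside it. Ccdc93, Tmem131 and Slc46a1 were just past it and Slc31a2, Sesn3 and Fbxw5 just short of it. Depth bears on the low values. From the spacing of low FPKM values, 1 FPKM on a transcript of 2 kb was estimated to be 39.4 fragments in B117H and 48.6 in B140H, and 3 fragments to be 0.0761 and 0.0617 FPKM. Values below these, such as those of Hbb-b2 in B140H or Ppfibp1 in B140H, are not distinguishable from 0 on a transcript of that length.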

How the data were processed

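Total RNA of 4 cell lines was sequenced, per the labels, with 1 library per line. The authors deposited 1 table of FPKM values per line with gene spans, and no counts. Per the submitters' processing notes, TopHat2 2.0.4, Cuffdiff and the mm9 build were used. The parameters are not given in the sources used here. Spans of 6 genes differ between the lineages' tables and 0 within a lineage, and separate processing of the lineages is possible. Levels set across lineages carry that limit, and none of the 6 was compared. Listed starts counted from 0 (6285 of 19357 spans equalled RefSeq on that reading, 434 on the other), so 1 was added.

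Log2 ratios used FPKM + 1 as deposited and no scaling. Small RNA genes took between 17.4% and 98.1% of the FPKM sum of a library. The genes, the comparison and the 36 gene lists were chosen with earlier results of these data known. Genes named were, per direction, the 15 most displaced that arose, the 8 largest already present and the 6 most displaced that closed, then the 6 most displaced that reversed, up to 4 genes per list past 2-fold, Dck, and 3 genes on each side of the line. Cell type markers were a separate list, from which Ptprc, Sfpi1, Cebpa, Csf2rb, Itgam, Cd3e, Cd3g, Ncr1, Cpa3, Fcer1a, Col1a1 and Col3a1 are given. Members of a list given as a count of those that arose are named without values. The text marks any further gene given with values as picked with those in view. Unnamed clones were not named, and a few genes that the rule takes are not reported here.

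Depth came from 657 genes, where between 70.2% and 84.2% of low values were whole within 0.15 fragments. Whole multiples of these depths fit as well. Promoters came from RefSeq (GRCm38.p6). Only the sorting of genes into arisen and already present differences was tested on simulated data, with large known differences. Other steps, and differences near the 2-fold line, were not tested in this way. Alternatives were a pseudocount of 0.1, other minimums, a 4-fold rule, a parental limit of 1.5-fold, centring, scaling, small RNA genes kept and genes at 0 left out. Subtraction of neighbours' medians and removal of overlapping spans were added after the data were seen. Python 3.11.15, numpy 2.4.6, pandas 2.3.3 and matplotlib 3.10.9 were used.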

Additional observations from a re-analysis of the deposited data

Results flagged for a closer look

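Of 174 named genes, 20 moved at least 2-fold in opposite directions in the lineages, each against its own parent. With 1 library per line the difference between the lineages was not tested. The values below are the change, on the log2 scale of FPKM + 1, in the difference B140 minus B117 from the parents to the resistant lines. Among reversed genes it was 6.36 for Hp, 5.67 for Hpse, -5.08 for Dntt, -5.03 for Vpreb1, 4.95 for Hbb-b1 and -3.99 for Ppfibp1. The value for Hbb-b1 rests on a level listed at 0 in B117H and on the pseudocount. Among genes that arose toward B140H it was 4.79 for Hmgn3, 4.66 for F13a1, 4.05 for Cd24a, 3.90 for Smagp, 3.19 for Tmsb10, 2.63 for Rtn4r, 2.48 for Ccne1 and 2.32 for Hist1h4h. Toward B117H it was -3.09 for Epha2. Among parental differences that closed it was 4.05 for Spp1, 3.46 for Rmrp, -3.42 for Xrcc5 and -2.46 for Krt80. Hk3, a hexokinase of myeloid cells, stayed higher in B117H while its difference narrowed by 3.89, from 116 FPKM in B117P and 0.332 in B140P to 32.9 in B117H and 4.71 in B140H.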

How the results depend on the processing

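No paired analysis was possible because B140H and B117H come from different lineages with 1 library each. Each was set beside its own parent throughout. Without replicates the counts describe these libraries, and whether a difference would recur in other clones was not tested. With a pseudocount of 0.1, 38 differences reversed. With a minimum mean FPKM of 5, 1186 genes were 2-fold apart, 431 of them higher in B117H, 583 differences were already present, 11 reversed and 46 arose toward B117H, and among those that arose 75 had moved in B117H alone and 58 in B140H alone. Under a 4-fold rule 616 genes were apart (194 higher in B140H, 422 in B117H), 525 were already present, 8 reversed and 83 arose (41 and 42), 15 of them on chromosomes 5 and 13, with 31 moved in B117H alone and 36 in B140H alone. Parental differences that closed were not counted under the 4-fold rule. Centring gave 188 that arose toward B140H. Scaling to an equal sum gave 1477 genes higher in B117H, 256 that arose toward B117H and 37 that reversed. Subtracting neighbours' medians gave 508 genes higher in B140H, 252 that arose (103 toward B140H, 26 on chromosomes 5 and 13, 70 moved in B117H alone) and 113 that closed. Of the 398 genes that arose, 347 also arose with a pseudocount of 0.1, 275 with the minimum of 5, 302 with centring, 283 with scaling and 176 with neighbours subtracted. The cause was not tested, except that the 4-fold rule and the higher minimum admit fewer genes by construction.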
